A study of Mus musculus with 22 samples.

Results

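The 10 genes of the immediate-early response and of feedback on mitogen-activated protein kinase (MAPK) signalling described here were examined for H3K27ac, the acetylation of histone H3 on lysine 27 that is found at promoters and enhancers in use. They were Egr1, Ier2, Ier5 and Btg2, the phosphatase genes Dusp1, Dusp2, Dusp5 and Dusp6, and the kinase genes Mapkapk2 and Mapkapk3. They were taken by name from 21938 protein-coding genes, and every H3K27ac peak that overlapped a gene body or lay within 20 kb of it was assigned to the gene. The cells were KL cells, the lineage-negative, cKit-positive and Sca1-negative myeloid progenitors of bone marrow, sorted from BcorΔE9-10 mice of strain C57BL/6 (scl-Cre-ERT +, Bcorfl/y) 20 weeks after tamoxifen (1 mg per day for 5 days, begun at 3 to 6 months of age). In these mice a tamoxifen-activated Cre recombinase, driven by a stem cell element of Scl, removes exons 9 and 10 of Bcor, which encodes a subunit of a Polycomb repressive complex. The label is therefore one of genotype and cell gate, and cells that escaped recombination were not separated. The 3 H3K27ac libraries of the series were used, numbered as replicates 1 to 3 in the labels, with cells from 3 mice per the methods of the study, and the other 19 of 22 samples were not analysed here. No BcorWT library for H3K27ac was among those analysed, so every value below describes BcorΔE9-10 cells and no genotype was compared.

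Immediate-early genes are transcribed within minutes of a growth factor, cytokine or stress signal without new protein synthesis, because the factors that drive them are already in the cell and are switched on by ERK, p38 and JNK kinases. Several of their products then limit the same signal: dual-specificity phosphatases remove the activating phosphates from MAPKs. In myeloid progenitors these kinases act downstream of Kit and cytokine receptors, and the kinases encoded by Mapkapk2 and Mapkapk3 carry the p38 signal on to regulators of mRNA stability.

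The peak lists numbered 23410, 25963 and 23758 peaks in replicates 1, 2 and 3, from a recovered depth of 18.04 to 19.26 M reads. The weakest called summit rested on 8 or 9 fragments, so weaker acetylation could not be seen. As a check of the gate, 7 of 8 progenitor genes (Kit, Cd34, Mpo, Myb, Cebpa, Spi1 and Prtn3) had a peak at a transcription start site (TSS) in all 3 libraries, with mean folds of 5.02 to 9.78, whereas Fcgr3 had none. Ly6a, which encodes the Sca1 antigen excluded by the gate, had no TSS peak in any library. Of 4 T and B cell genes, 1 had a TSS peak in a single library at a fold of 3.0, and none of 4 mature myeloid, 3 erythroid and 4 non-haematopoietic genes had one.

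All 10 genes carried a peak within 2.5 kb of a TSS in each of the 3 libraries, against 43.9% of all protein-coding genes. The level of a gene, called its TSS fold here, is the fold enrichment over local background at the strongest of these peaks, as the authors' peak caller gave it for each library. The 10 genes spread over a 3-fold span, from Mapkapk2 at 27.1 ± 6.58 (SD, n = 3) and Dusp1 at 22.8 ± 2.97 down to Dusp5 at 9.60 ± 1.74 and Egr1 at 8.83 ± 1.89. Among genes with a TSS peak, the median TSS fold was 9.07, 9.26 and 10.7 in replicates 1, 2 and 3, and 9, 8 and 8 of the 10 genes lay above it. The 90th percentile of those genes stood at 19.7, 18.5 and 21.6, and 2 of the 10, Dusp1 and Mapkapk2, exceeded that level in all 3 libraries, a share to be read beside the 6.87% of genes with a TSS peak in all 3 that did so. In material from many cells, fewer cells with the mark and less acetylation in each cell cannot be told apart.

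**Figure D1:**
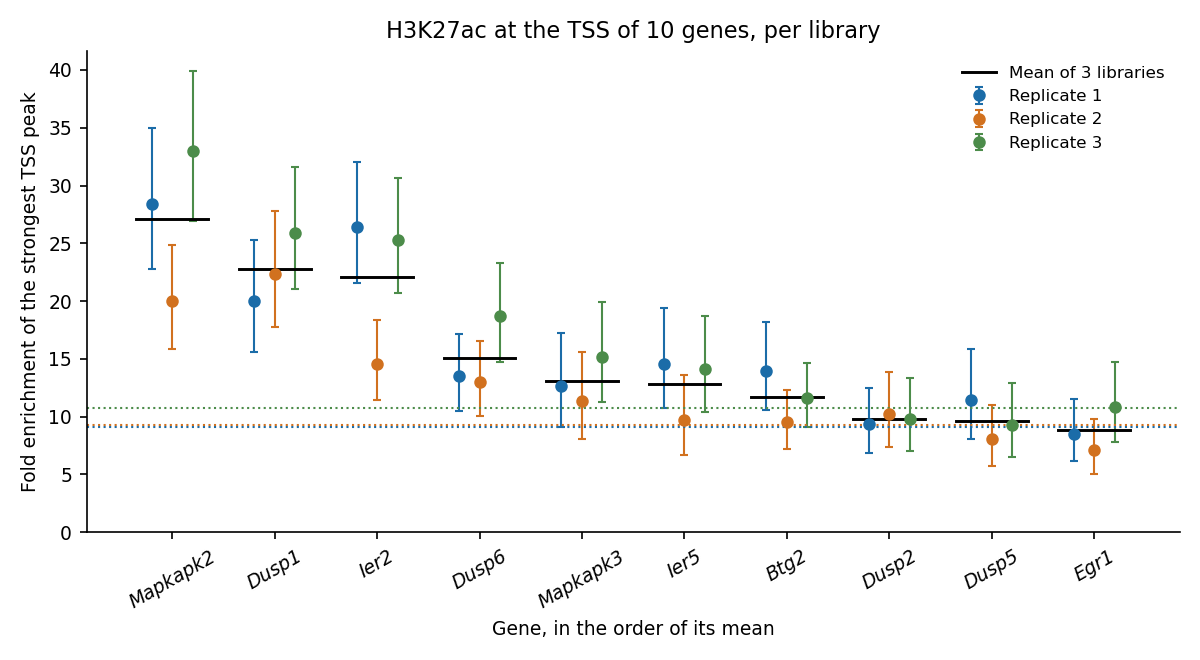
TSS fold (vertical axis, fold enrichment over local background) of the 10 genes, ordered by their mean, in replicates 1, 2 and 3 (coloured points). Bars on the points are 95% intervals for counting error, black lines are means of the 3 libraries, and dotted lines are each library's median over all genes with a TSS peak; Mapkapk2, Dusp1 and Ier2 sit highest, with replicate 2 of Ier2 well below the others.

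The order of the genes was only partly stable between libraries. Ier2 lay above Dusp6, Dusp6 above Mapkapk3 and Ier5 above Btg2 in 3 of 3 libraries. The other 6 of 9 neighbouring pairs changed places in 1 library, among them Mapkapk2 and Dusp1 (a ratio of 1.17) and Dusp5 and Egr1 (a ratio of 1.09). Any such test measures only the spread between these libraries, and with 3 of them the smallest 2-sided p of an exact sign-flip permutation test is 0.25, so no difference between 2 genes could reach 0.05 in that test.

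Among the immediate-early genes proper, Egr1, which encodes a zinc-finger transcription factor, had the lowest mean TSS fold of the 10. Its values were 8.52, 7.12 and 10.9 in replicates 1, 2 and 3, or percentiles 46.0, 33.1 and 50.9 of all genes with a TSS peak. The acetylation around Egr1 was instead strongest upstream. A region of 1461 bp whose summit lay 5.10 kb before the start (chr18:34854819-34856279, GRCm38, intergenic) reached folds of 15.8, 8.75 and 13.5. Its mean of 12.7 ± 3.60 stood at percentile 98.3 of the 2460 distal regions found in all 3 libraries, whose median fold was 4.94. A smaller neighbour with its summit 4.33 kb upstream had folds of 7.39, 4.20 and 6.39. Both were lowest in replicate 2, as was the TSS. These distances are from the reference start at 34861207. Egr1 has 2 annotated TSSs, and its GENCODE gene begins further upstream, at 34859823. Both regions lie closer to that start, though still over 2.5 kb from it.

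Ier2, whose product is a small nuclear protein, showed the opposite arrangement, with a broad domain on the gene itself. Its TSS folds were 26.4, 14.6 and 25.3. The 95% counting intervals of replicate 1 (21.6 to 32.1) and replicate 3 (20.7 to 30.7) did not meet that of replicate 2 (11.5 to 18.3). These intervals take the background as fixed and leave out variation between mice. The strongest summit lay 792 to 856 bp downstream of the start, inside the exon of this 1.52 kb gene (chr8:84661331-84662852). Ier2 had 3 further TSS regions upstream in all 3 libraries, with mean folds of 7.01, 5.83 and 5.24. A distal region 6.24 kb downstream reached 6.48, 5.00 and 2.62.

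Ier5, a member of the same family that acts with a protein phosphatase on stress signalling, had a single TSS region on the gene body (chr1:155097453-155099574) with folds of 14.6, 9.70 and 14.1. A pair of weak regions beyond its end were called in replicates 1 and 3 and not in replicate 2. The nearer of these, 8.32 kb from the start, reached folds of 3.21 and 3.20.

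Btg2, an antiproliferative gene whose product recruits the deadenylase that shortens mRNA tails, carried acetylation on both sides of its start. The region inside the gene had folds of 12.7, 9.50 and 11.6, and the one upstream had 14.0, 6.75 and 7.62. The upstream region was therefore the higher in replicate 1 only. Btg2 also had 3 distal regions upstream in all 3 libraries. The strongest lay 14.3 kb before the start (chr1:134093172-134093973) with folds of 7.89, 7.80 and 10.3, at percentile 92.8 of distal regions, and the next 15.2 kb before it with a mean of 5.64 ± 0.708. The sequence below is shown because it lies between and under the peaks at the start. It is the 250 bases before the RefSeq start (RefSeq, GRCm38.p6, read in the direction of transcription). Capitals mark matches to the motifs searched, which are a cAMP response element, an EGR site and GC boxes.
Btg2 upstream (chr1:134079156-134079405, - strand): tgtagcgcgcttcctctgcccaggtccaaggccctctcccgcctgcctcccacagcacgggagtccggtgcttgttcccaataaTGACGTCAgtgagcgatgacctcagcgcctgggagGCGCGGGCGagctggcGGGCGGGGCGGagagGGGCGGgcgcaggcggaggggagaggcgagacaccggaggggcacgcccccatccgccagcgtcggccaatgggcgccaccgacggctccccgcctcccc

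The 4 dual-specificity phosphatases differed among themselves. Dusp1 encodes a nuclear phosphatase for p38, JNK and ERK, and was the highest of them with TSS folds of 20.0, 22.4 and 25.9. These rested on 69, 80 and 95 fragments, and Dusp1 was above the other 3 phosphatases in every library. The strongest summit was narrow and upstream, 273 to 289 bp before the start, in a region of 583 bp (chr17:26508576-26509158). A second region on the first part of the gene had folds of 10.4, 12.1 and 15.0. The GENCODE model of Dusp1 runs over 56.5 kb because of long transcripts that begin at the promoter of the neighbouring gene Ergic1, whereas RefSeq ends the gene at chr17:26505591-26508472. The third region counted as a Dusp1 TSS region (chr17:26560979-26562276, folds of 8.88, 12.6 and 9.43) is therefore shared with Ergic1. With RefSeq gene models the TSS folds of Dusp1 were the same. The distal region of Dusp1 in all 3 libraries had its summit 23.4 kb downstream (chr17:26484935-26485619), with folds of 5.46, 8.27 and 6.18.

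Dusp6, a cytoplasmic phosphatase for ERK, had TSS folds of 13.5, 13.0 and 18.7. Its strongest summit lay 1542 to 1588 bp before the start in every library, in an upstream region of 1849 bp (chr10:99261170-99263018). A region of similar width on the gene reached only 6.48, 5.25 and 8.97. No distal region was called for Dusp6 in any library. Dusp2, a nuclear phosphatase first found in activated lymphocytes, had the smallest spread of the 10, with 9.35, 10.2 and 9.83 (SD 0.450). The value of replicate 1 is from a region upstream, and those of replicates 2 and 3 are from a region on the gene. Dusp2 too had acetylation on both sides of its start, with a mean fold of 8.72 ± 1.35 upstream and 9.11 ± 1.62 on the gene. Each region alone thus varied more between libraries than the TSS fold. The distal region of Dusp2 in all 3 libraries had its summit 7.26 kb upstream (chr2:127328776-127329501), with folds of 4.4, 3.2 and 5.2. Dusp5, a nuclear phosphatase for ERK, had 11.5, 8.04 and 9.29, from 2 short regions of 338 and 752 bp. The upstream one was the stronger in replicates 1 and 3 and the one on the gene in replicate 2.

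Sequences at the starts of these genes follow. Most of the Dusp2 and Dusp5 sequence lies between the upstream region and the region on the gene and not under a peak. For Dusp1, Dusp2 and Dusp5 they are the 250 bases before the RefSeq start, in the direction of transcription (RefSeq, GRCm38.p6), and for Dusp6 the 151 bases around the strongest summit of replicate 3. Capitals mark motif matches: in Dusp1 a cAMP response element, a further copy of its first 5 bases and GC boxes, in Dusp2 GC boxes and an EGR site, in Dusp5 a GC box, CArG boxes side by side and a reverse TGACG, and in the Dusp6 window a GC box and a reverse TATA box.
Dusp1 upstream (chr17:26508473-26508722, - strand): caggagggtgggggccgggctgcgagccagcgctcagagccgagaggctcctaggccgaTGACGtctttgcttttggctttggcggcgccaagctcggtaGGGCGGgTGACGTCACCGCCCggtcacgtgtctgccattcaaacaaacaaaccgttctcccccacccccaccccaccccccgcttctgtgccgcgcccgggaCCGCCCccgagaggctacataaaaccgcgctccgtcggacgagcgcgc
Dusp2 upstream (chr2:127335909-127336158, + strand): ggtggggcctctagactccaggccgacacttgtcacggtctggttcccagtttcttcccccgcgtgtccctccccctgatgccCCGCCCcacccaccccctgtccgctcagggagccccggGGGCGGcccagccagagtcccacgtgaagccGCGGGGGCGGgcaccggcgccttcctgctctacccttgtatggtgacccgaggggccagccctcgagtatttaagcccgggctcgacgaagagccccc
Dusp5 upstream (chr19:53528895-53529144, + strand): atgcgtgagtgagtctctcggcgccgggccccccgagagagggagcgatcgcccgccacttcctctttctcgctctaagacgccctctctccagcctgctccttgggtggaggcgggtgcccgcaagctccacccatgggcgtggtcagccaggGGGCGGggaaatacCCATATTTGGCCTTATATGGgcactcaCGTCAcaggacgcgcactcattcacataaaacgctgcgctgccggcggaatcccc
Dusp6 summit (chr10:99261614-99261764, + strand): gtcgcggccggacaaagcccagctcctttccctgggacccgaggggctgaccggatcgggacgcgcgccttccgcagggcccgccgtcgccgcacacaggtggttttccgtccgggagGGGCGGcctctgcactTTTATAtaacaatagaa

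Mapkapk2, the kinase gene downstream of p38, had the highest mean TSS fold and the most merged regions of the 10. Its TSS folds were 28.4, 20.0 and 33.0, on 87, 79 and 103 fragments. Replicate 2 was the lowest, and there Dusp1 was higher, at 22.4. The 44.1 kb gene (chr1:131053700-131097826) had 24 merged regions, in the longest locus after that of Dusp1, which had 18. Of the 24, 7 were in all 3 libraries. At Mapkapk2 14 regions were distal, and 4 of these were in all 3 libraries. The strongest distal region lay in an intron 13.7 kb into the gene (chr1:131083288-131085523) with folds of 7.94, 8.25 and 9.13, and the next 12.9 kb upstream with 7.41, 7.0 and 9.09. They stood at percentiles 92.1 and 89.8 of distal regions. A further intronic region 7.66 kb from the start was higher still (9.56, 8.60 and 10.4) but lies within 2.5 kb of the TSS of an annotated noncoding transcript, and was not counted as distal. Its summit is shown because it was the strongest in the locus away from the start (151 bases, GRCm38.p6). Capitals mark its only motif match, to the AP-1 pattern TGANTCA. That pattern allows any middle base, which is A here.
Mapkapk2 intronic summit (chr1:131090088-131090238, + strand): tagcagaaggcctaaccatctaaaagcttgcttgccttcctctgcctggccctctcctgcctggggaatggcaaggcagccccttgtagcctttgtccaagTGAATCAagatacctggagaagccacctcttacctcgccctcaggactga

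Mapkapk3, which encodes a close relative of the same kinase, had TSS folds of 12.7, 11.3 and 15.2 from 1 region of 958 bp at its start (chr9:107288909-107289866). A pair of regions inside the gene, 8.57 and 9.13 kb from the start, was found in all 3 libraries, with mean folds of 7.04 ± 1.20 and 4.63 ± 1.30, but they lie near internal annotated starts of Mapkapk3. It had no distal region in all 3 libraries. In each of the 3 libraries Mapkapk2 was higher than Mapkapk3 at the TSS.

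**Figure D2:**
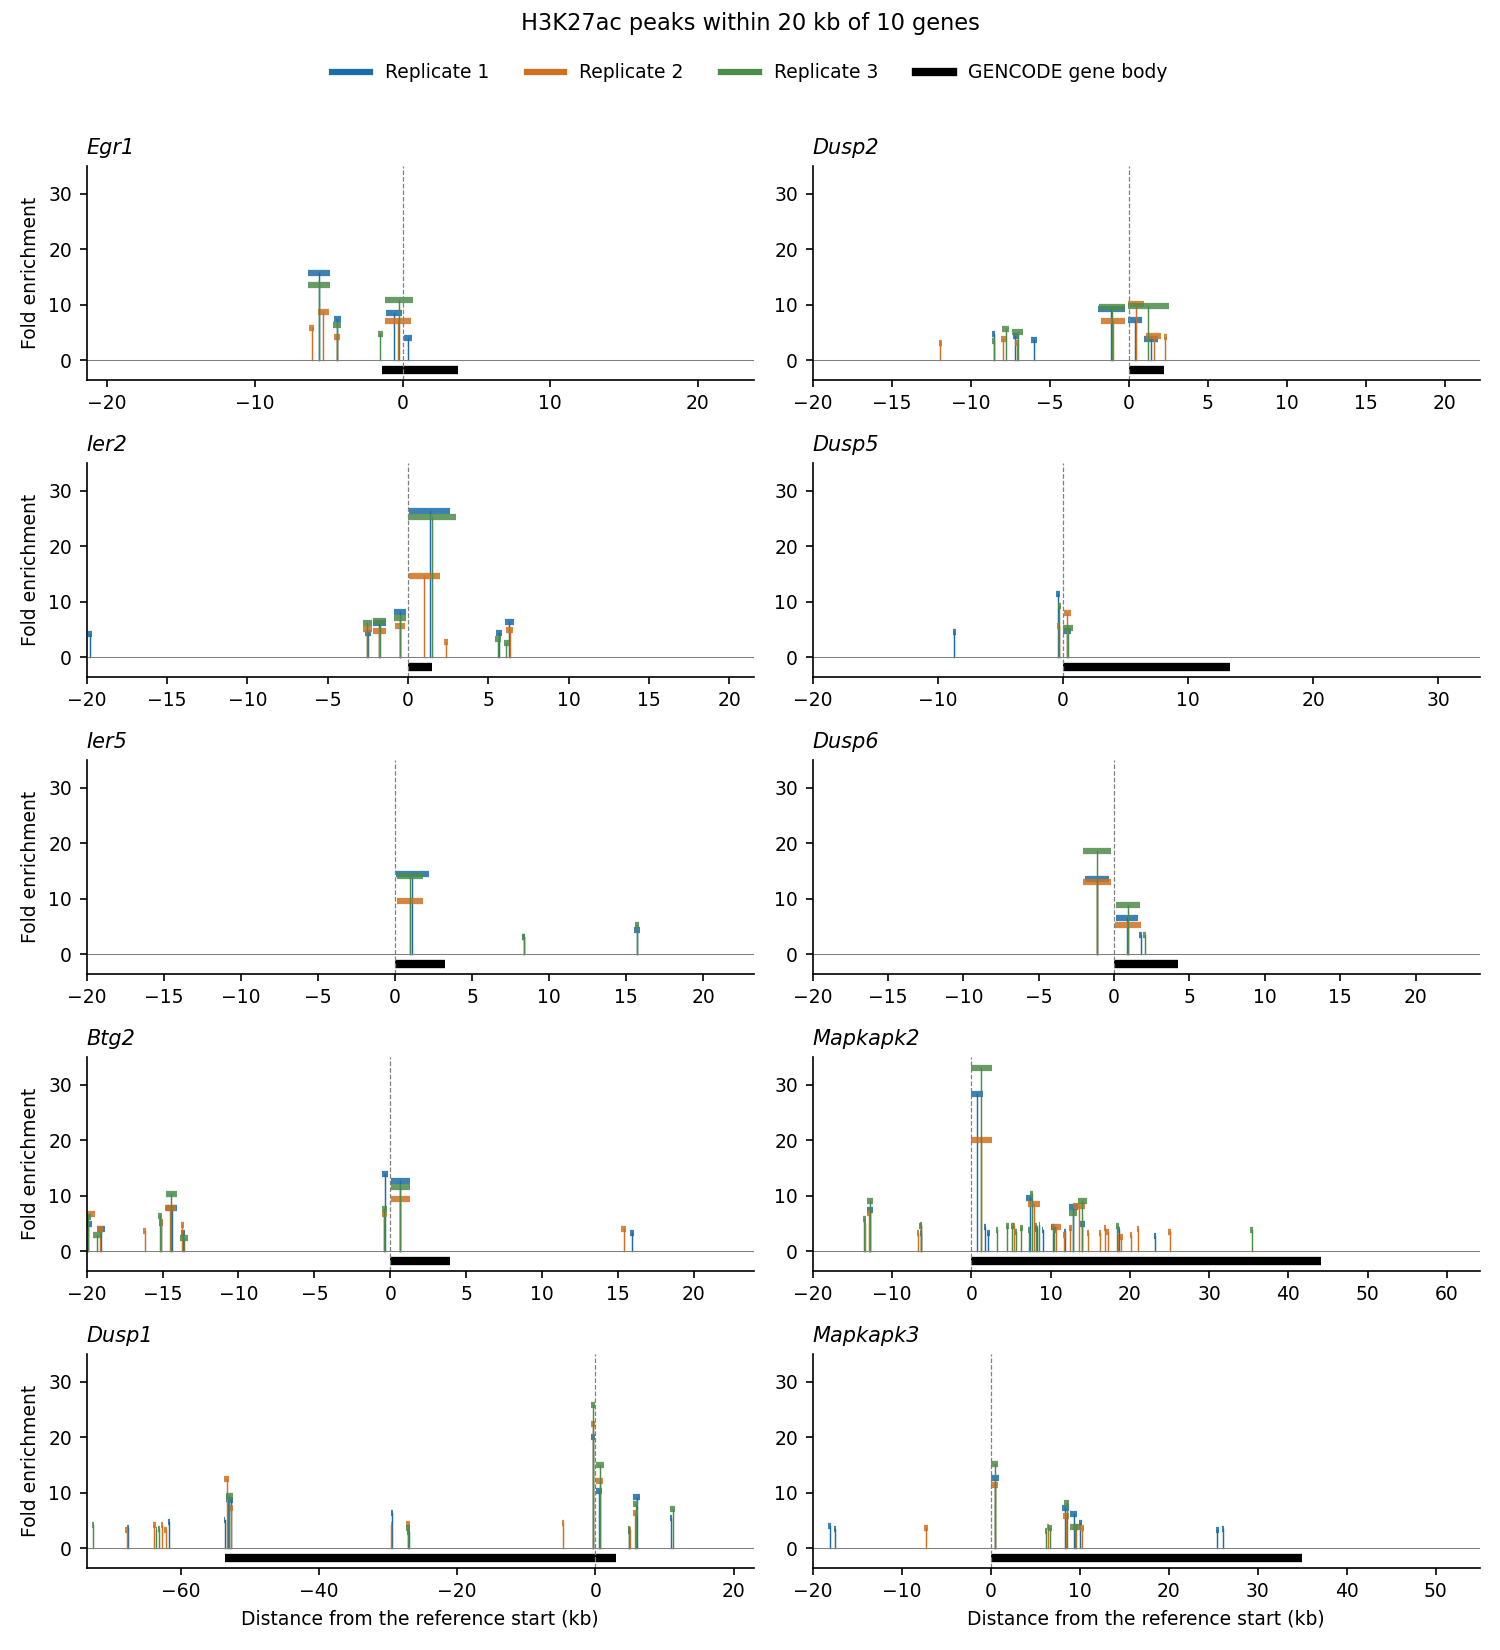
Fold enrichment (vertical axis) of each peak in the 10 loci against its distance from the reference start in kb (horizontal axis, negative is upstream), for replicates 1, 2 and 3; each coloured bar spans a peak and the black bar is the GENCODE gene body. Egr1 has its highest peaks about 5 kb upstream, Dusp6 has its highest just upstream and Mapkapk2 has many peaks along the gene.

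Acetylation covered unequal shares of the 5 kb around each start. Peaks covered 82.5% ± 4.49 (SD, n = 3) of that window at Ier2, 74.7% ± 7.90 at Dusp2 and 69.9% ± 4.11 at Dusp6, against a median of 18.3% over genes with a TSS peak in all 3 libraries. These 3 stood at percentiles of 99.8 and above among those genes. Mapkapk3 (17.5%) and Dusp5 (18.7%) lay near the median. Dusp2 thus combined a TSS fold near the median with one of the largest covered shares, from 2 merged regions with a gap between them. The start base itself was inside a peak at 2, 3 and 4 of the 10 genes in replicates 1, 2 and 3, and at 40.1%, 44.1% and 47.1% of all genes with a TSS peak in all 3.

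Each TSS peak was then set against the strongest distal peak of the same library, a ratio that does not depend on scaling between libraries. Ier2 had the largest excess at the TSS, a mean log2 ratio of 2.16 ± 0.69 (SD, n = 3), followed by Dusp1 at 2.01 ± 0.24, Mapkapk2 at 1.66 ± 0.33 and Dusp2 at 1.07 ± 0.33. At Btg2 the excess was 0.43 ± 0.35. At these 5 genes the TSS was higher in 3 of 3 libraries. Egr1 alone among the 6 genes with distal peaks in every library had the distal peak higher in 3 of 3, by a mean log2 ratio of 0.50 ± 0.34, or 1.42-fold. Each of the 6 reached p = 0.25 in the exact 2-sided sign-flip test, the smallest value that 3 libraries allow. Ier5 and Mapkapk3 had a distal peak in 2 libraries, Dusp5 in 1 and Dusp6 in none, so no ratio over 3 libraries was formed. The ratio of Dusp1 depended on the edge of its locus. Its strongest distal peak inside the locus had a fold of 4.57 in replicate 2. The region that crosses the edge (chr17:26484935-26485619) had a fold of 8.27 in that library. With a locus flank of 50 kb the mean log2 ratio of Dusp1 was 1.73 in place of 2.01. Widening the TSS window to 5 kb places the upstream region of Egr1 inside it and raises the TSS fold of Egr1 to 12.7. With only peaks of −log10 q 5 or more kept, 3 genes in place of 5 had a TSS peak above a distal peak in every library.

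**Figure D3:**
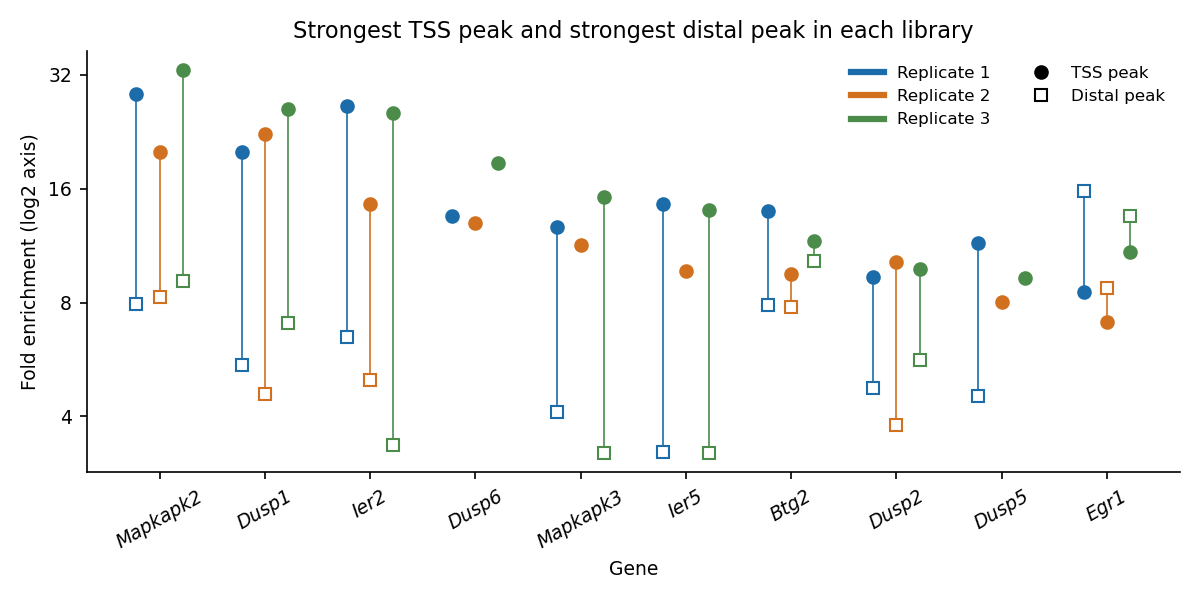
Fold enrichment (vertical log2 axis) of the strongest TSS peak (filled circle) and the strongest distal peak (open square) of each gene in replicates 1, 2 and 3. The square lies above the circle at Egr1 in all 3 libraries and below it wherever another gene has one.

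Overlapping peaks of the 3 libraries merged into 88 regions in the 10 loci, of which 39 were found in all 3, beside 41.3% of the 34595 regions of the whole series. Of 28 regions at the TSSs of the 10 genes, 21 (75%) were in all 3 libraries, beside 59.6% of the 19838 regions near any TSS in the series. Of 44 distal regions 12 (27.3%) were, beside 16.7% of the 14757 distal regions of the series. The other 16 regions lay near noncoding TSSs or, in 1 case, near the TSS of a neighbouring coding gene. Of the 15 near noncoding TSSs, 6 (40%) were in all 3 libraries, and the 1 near a neighbouring coding gene was not. The 19838 regions of the series take in both kinds, so the 75% and the 59.6% are not shares of like sets. Of the 10 genes, 6 (Egr1, Ier2, Btg2, Dusp1, Dusp2 and Mapkapk2) had at least 1 distal region in all 3 libraries, against 13.7% of genes with a TSS peak in all 3. The locus of Dusp1 was 96.5 kb and that of Mapkapk2 84.1 kb, so more sequence was searched there than at the others. The Dusp1 region (26484935 to 26485619) crosses the edge of its locus, and the count was 5 of 10 where a peak of every library had to reach into the locus. With peaks required to overlap each other by 50% of both lengths, the count was 3. The 13.7% was formed under the main rule, and no share of all genes was formed under either stricter rule.

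Super-enhancers (SEs) were called by joining peaks within a fixed distance and ranking the joined regions by summed fold times length. The study called SEs with Homer and reported far fewer in at least 2 of the 3 samples. The SEs here are therefore not the set of the study. SEs were assigned to 6 of the 10 genes in at least 2 libraries, against 18.4% of genes with a TSS peak in all 3. Mapkapk2 ranked 23, 4 and 6 of 11779, 12327 and 11525 joined regions in replicates 1, 2 and 3, and its region spanned 32.2 to 38.8 kb with 14, 20 and 17 peaks. Ier2 ranked 10, 317 and 31 from a region of only 9.10 to 9.35 kb. The ranks of Dusp1 (553, 659 and 430), Dusp6 (687, 613 and 387) and Dusp2 (816, 922 and 408) were all within the 1383, 1083 and 1190 SEs of each library. Egr1 was an SE in replicates 1 and 3, at ranks 410 and 493, and fell outside at rank 1423 in replicate 2. Ier5 and Mapkapk3 were SEs in replicate 1 only, and Btg2 and Dusp5 in none. The call depended on what was joined. With peaks joined within 20 kb, 6 genes were again called in at least 2 libraries, but Dusp2 was called in 1 and Btg2 in 2. With 5 kb, Ier5 was called in 2 libraries as well, which made 7 genes. With TSS peaks left out, 3 genes remained above the threshold in at least 2 libraries: Egr1 and Mapkapk2 in 3, and Btg2, which had not been called, in 2. With the signal taken as summed fold, Ier2, Dusp1 and Mapkapk2 were called in 3 libraries and no other gene in 2. The 18.4% holds for the main rule only, and no share of all genes was formed under these other rules.

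**Figure D4:**
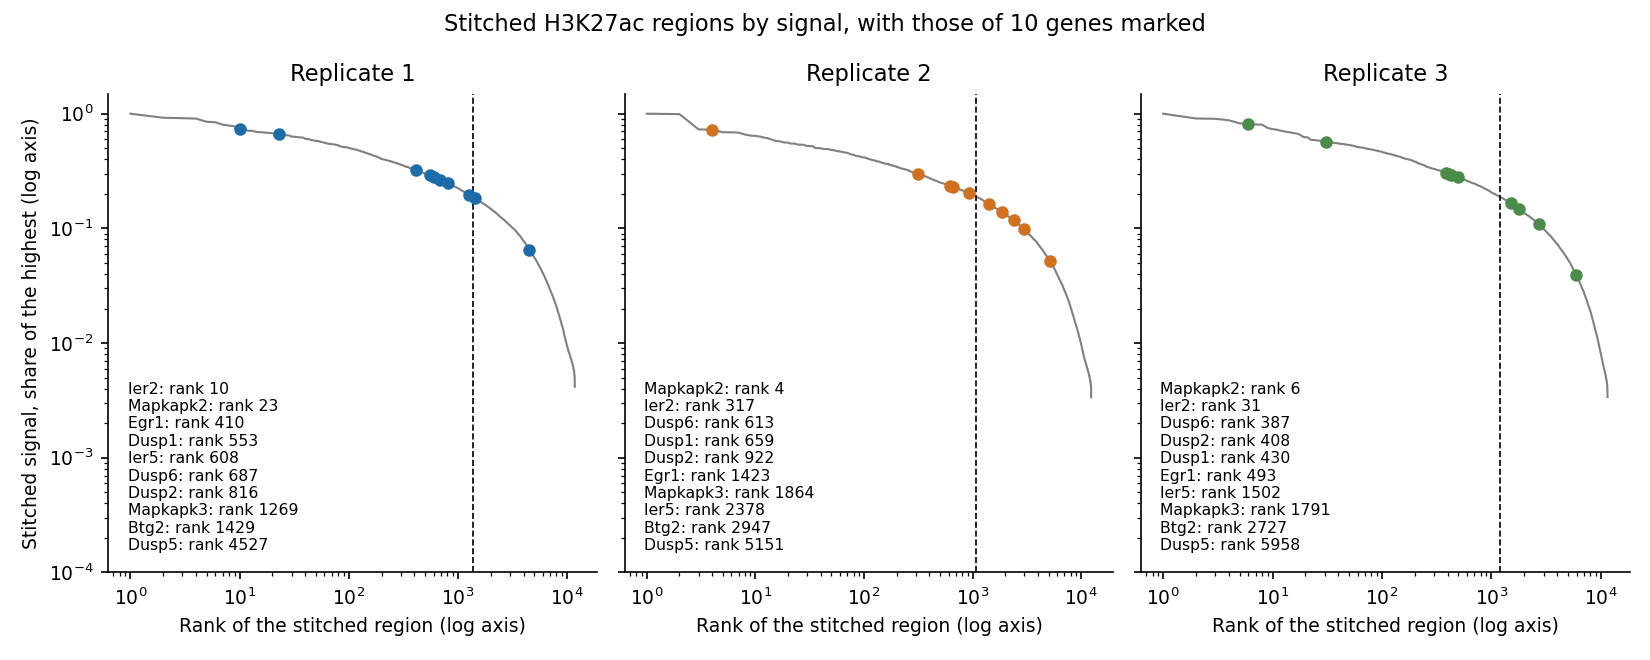
Signal of each joined H3K27ac region as a share of the highest in its library (vertical log axis) against its rank (horizontal log axis), one panel per library; points are the regions assigned to the 10 genes, ranks are printed in each panel and the dashed line is the SE threshold. In replicate 2 the Dusp5 entry is a region away from the gene, to which Dusp5 was the closest coding gene; Mapkapk2 lies among the highest 23 regions in each library.

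Promoter sequences of 300 bases (250 before and 50 after the RefSeq start) were available for 8 of the 10 genes; those of Egr1 and Ier2 were not examined. They were searched on both strands for 9 motifs, and each share below is of 32851 promoters of the same length. Those promoters were not matched for base composition. Their median GC content was 52.7%, whereas the sequences of the 8 genes held 53.7% to 72.0%. Shares of motifs rich in G and C are therefore not from sequences of like composition. The full cAMP response element (TGACGTCA), bound by CREB factors that lie downstream of p38 and ERK, was found in Btg2 and Dusp1, and in 1.79% of all promoters. Its first 5 bases (TGACG), which the full element holds on each strand, were found in 6 of 8, and in 20.8% of all. The CArG box, the core of the serum response element, was found only in Dusp5, as 2 copies directly adjoining each other at 82 to 73 and 72 to 63 bases before the start, and in 1.63% of all promoters. The EGR site (GCGNGGGCG), to which the product of Egr1 binds, was found in Btg2 and Dusp2, and in 5.55% of all. The GC box (GGGCGG), which overlaps the EGR site in Dusp2, was found in 6 of 8 and in 35.7% of all. No match to the AP-1 site (TGANTCA, 7.81% of all), the ETS site (CCGGAAG, 8.86%), the TATA box (TATAAA, 13.6%) or the NF-kB site (4.51%) was found in the 8, which says only that these letters are not in these windows.

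Several of the matches lay beside the peaks and not under them. The CArG boxes of Dusp5 (chr19:53529063-53529082) and the EGR site of Dusp2 (chr2:127336061-127336069) were in the gap between the upstream region and the region on the gene, inside no peak of any library. The cAMP response element of Dusp1 (chr17:26508608-26508615) was inside the edge of the upstream peak in 2 libraries, and that of Btg2 (chr1:134079314-134079321) in 1. At the summits away from the starts, 16 windows of 151 bases were searched, from every distal or noncoding TSS region found in all 3 libraries except those of Egr1. Of these, 2 held a match to the AP-1 pattern TGANTCA, at Mapkapk2 and Dusp1, and 1 held an ETS site, at Btg2. Both AP-1 matches lay in noncoding TSS regions. Of the 10 windows in distal regions 0 held the AP-1 site and 1 the ETS site, beside 4.16% and 1.72% of the 2377 distal regions of the series examined in the same way.

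Other genes of the pathway were described from 4 lists. Of 27 other immediate-early genes, 24 had a TSS peak in all 3 libraries, with a median mean TSS fold of 14.3, beside 12.9 for the 10 genes and 10.2 for all genes with such peaks. The highest were Nr4a2, an orphan nuclear receptor, at 33.2 ± 4.18 and Maff, a small Maf factor, at 26.9 ± 6.18, and the lowest with a peak were Nr4a1 at 5.81 ± 0.844 and Egr3 at 5.85 ± 1.71. Ier5l, Arc and Ccn1 (listed as Cyr61) had no TSS peak in any library. SEs in at least 2 libraries were assigned to 11 of the 27.

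Of 14 other phosphatases and Sprouty or Spred inhibitors, which dampen the RAS-ERK pathway, 11 had a TSS peak in all 3 libraries with a median of 12.6, and 3 had an SE. Dusp16, a phosphatase for JNK and p38, was highest at 26.0 ± 4.73, followed by Spred2 at 19.8 ± 3.10. Spry1 (4.09 ± 0.978) and Spry4 (4.75 ± 1.82) were lowest, and Dusp9, Dusp14 and Spred3 had no peak. Among the phosphatases Dusp1 was thus exceeded in mean TSS fold by Dusp16 alone.

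Of 21 genes of the RAS-ERK, p38 and JNK cascade itself, 15 had a TSS peak in all 3 libraries, 3 in 1 or 2 and 3 in none. Their median was 14.0, with Nras (21.5 ± 2.47) and Braf (21.1 ± 2.15) highest and Araf (7.62 ± 1.35) and Hras (8.10 ± 0.712) lowest. Of the 21, 3 had an SE in at least 2 libraries. Of 9 other MAPK-activated kinases, 6 had a TSS peak in all 3, with a median of 8.58, and 3 had an SE. Mapkapk5, a further relative of Mapkapk2, was highest at 24.0 ± 4.30 and Mknk2, which phosphorylates a translation factor, next at 16.4 ± 1.88. Rps6ka3 (5.42 ± 0.339) and Mknk1 (6.69 ± 1.21) were lowest, and Rps6ka2, Rps6ka4 and Rps6ka6 had no TSS peak. The SE counts of the 4 lists depended on the rule, and are given here in the order of the lists above. With TSS peaks left out they were 3, 1, 2 and 0. With summed fold they were 7, 0, 3 and 1, and with peaks joined within 5 kb they were 15, 5, 5 and 3. The counts and medians of these lists are given side by side and were not tested.

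**Figure D5:**
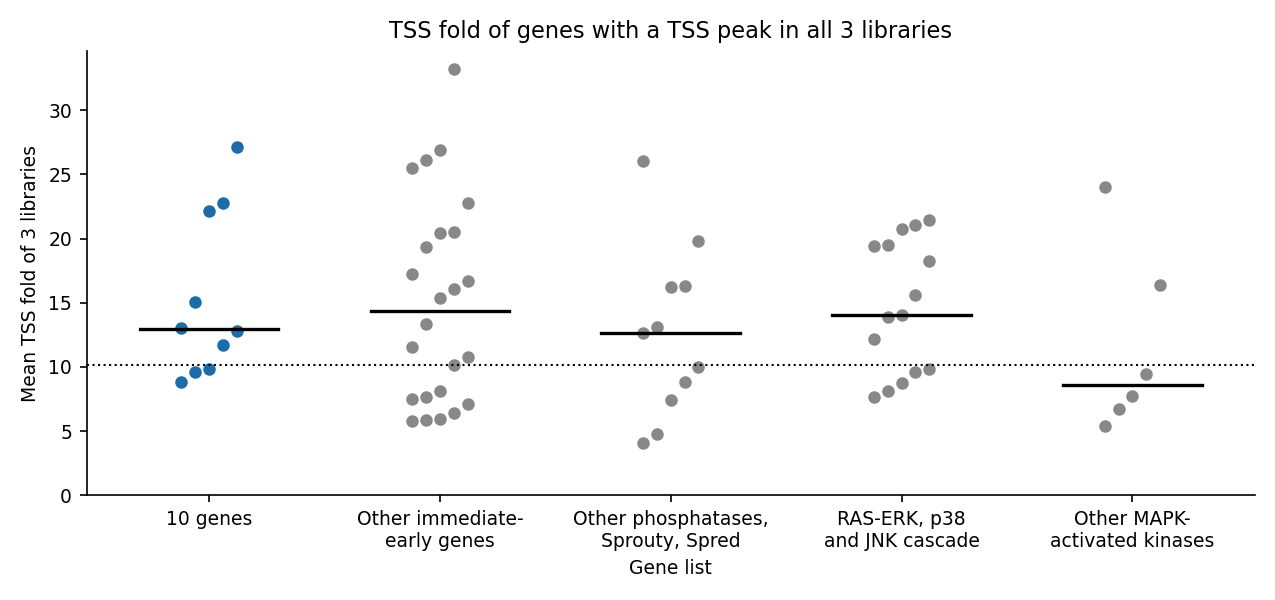
Mean TSS fold over 3 libraries (vertical axis) of each gene with a TSS peak in all 3, for the 10 genes (blue) and 4 other lists (grey); black lines are list medians and the dotted line is the median of all such genes, 10.2. The lists overlap over most of their range, and the median of the other MAPK-activated kinases is the only one under the dotted line.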

How the data were processed

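KL cells of BcorΔE9-10 mice had been immunoprecipitated for H3K27ac and sequenced from single ends. The authors mapped the reads to GRCm38 using Bowtie2. They took out duplicates, and MACS2 (2.1.1, per the submitters' processing notes) then called the peaks of every library on its own. The deposited lists give for each summit a fold enrichment (a ratio to local background, not scaled between libraries), the −log10 of a p-value, the −log10 of a q-value, a score and a summit position. The score deposited by the authors was not used. The labels are unclear on which input served as control, and a control shared by all 3 libraries makes their backgrounds dependent.

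Rows that repeat an interval were taken as 1 peak with the highest fold. Fragments at a summit and depth were recovered from fold and p-value, which 100% of rows solved within 0.001 of −log10 p, under the assumption of 200 bp fragments, the shortest peak, and the built-in mouse genome size of the peak caller. Intervals are exact Poisson 95% intervals and cover counting error only, since duplicates had been removed without molecular identifiers. Genes and TSSs were from GENCODE M21, and the reference start is the principal TSS closest to the RefSeq start. A TSS peak lies within 2.5 kb of any TSS of the gene, and a distal one is over 2.5 kb from every annotated TSS. Merged regions share 1 bp. SEs were called on peaks joined within 12.5 kb, past the point of slope 1, and given to all coding genes with a TSS inside or to the closest. Percentiles are over genes with a TSS peak. The class and merging rules and the recovery of fragments were tested on simulated data. Python 3.11.15, numpy 2.4.6, pandas 2.3.3 and scipy 1.17.1 were used. The 10 genes and the lists were chosen with earlier results of these data known. All 10 genes were named, and the 2 highest and 2 lowest genes of each list. Of the distal regions in all 3 libraries, up to 2 with the highest mean fold were named in each locus. Alternatives covered the q threshold, TSS window, locus flank, overlap, transcript set, SE rule and each library left out, and RefSeq gene models and the edge of the locus were added after the data were seen. Sequences were from RefSeq GRCm38.p6.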

Additional observations from a re-analysis of the deposited data

How the results depend on the processing

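No paired analysis was possible because a single group was analysed. Shares over all genes were formed at the main settings only. The count of 10 genes with a TSS peak in every library was 10 under each alternative run. The 12 distal regions in all 3 libraries became 7 at a −log10 q of at least 5, 7 with a TSS window of 5 kb, 7 with a flank of 10 kb and 5 with reciprocal overlap, and the genes with such a region fell from 6 to 3 with reciprocal overlap. The genes with the TSS above the distal peak numbered 3 in place of 5 at a −log10 q of at least 5. Genes with an SE numbered 3 in place of 6 with TSS peaks left out and 3 with summed fold, while joining within 20 kb kept the number at 6 with Btg2 in place of Dusp2. Without 1 library each, the neighbouring pairs in a stable order ranged from 2 to 5 (5 without replicate 1), the distal regions from 13 to 17, the genes with a distal region from 6 to 7, and the SE genes from 5 to 6. The ratio of TSS to distal fold kept its direction wherever it was formed. The mean log2 ratio of Dusp1 fell from 2.01 to 1.73 with a flank of 50 kb. The ratio could not be formed for Egr1 with a TSS window of 5 kb, where the upstream region became the TSS peak. Neither could that of Ier2 and Dusp2 at a −log10 q of at least 5, or of Btg2 with a flank of 10 kb. Depth limits the lists to summits of 8 or more fragments, and with 3 libraries the sign-flip test could not pass 0.05.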

Other observations

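Replicate 2 held the lowest TSS fold at 8 of the 10 genes, the exceptions being Dusp1 and Dusp2, which were lowest in replicate 1. Among all 9637 genes with a TSS peak in all 3 libraries, replicate 2 was lowest at 42.3% and replicate 1 at 45.8%. The median percentile of the 10 genes was 74.2, 59.9 and 69.9 in replicates 1, 2 and 3. Among the other immediate-early genes replicate 2 was lowest at 14 of 24 (58.3%), with median percentiles of 76.4, 66.4 and 76.4, whereas in the RAS-ERK, p38 and JNK cascade it was lowest at 3 of 15 (20.0%), with median percentiles of 72.0, 72.5 and 77.6. Among the other phosphatases and Sprouty or Spred inhibitors replicate 2 was lowest at 6 of 11 (54.55%), with median percentiles of 62.1, 65.2 and 68.2. Among the other MAPK-activated kinases it was lowest at 1 of 6, with median percentiles of 33.5, 42.8 and 48.2. The median percentile was thus lowest in replicate 2 for the 10 genes and the other immediate-early genes only. This description was chosen after the values of the 10 genes had been seen, and it was not tested.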
